A study of Zea mays with 54 samples.

Results

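The outer cell layer (OCL) genes of maize, ocl1, ocl2, ocl3 and ocl4, were compared between the L1 and the L2 of the vegetative shoot apical meristem (SAM). They are 4 of the 866 genes that a probe of a single annotated gene names. Their probes were those whose single annotated gene carries one of these 4 names as its symbol or as a RefSeq synonym, in any case. There were 13 such probes among the 49280 of 3 spotted cDNA array designs, and 11 of them were among the 37662 probes with values. ocl1 had 4 probes with values, ocl2 had 1, ocl3 had 3 and ocl4 had 3. The 2 further ocl3 probes, both on slides 7 to 12, had no value in any column and are not analysed here.

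OCL genes encode homeodomain-leucine zipper transcription factors of class IV, a plant family that pairs a DNA-binding homeodomain with a START domain, a fold that in animals binds lipids. In Arabidopsis, related factors such as ATML1 and PDF2 act in the specification of epidermal cells and bind a short promoter element known as the L1 box. The maize genes were named for transcripts found in the outer layer of embryos and meristems. ocl1 has been tied to the genes of wax and cuticle formation, and ocl4 to the anther wall and to the repression of leaf-edge hairs.

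All plants were of the inbred line B73, with no mutant and no treatment, and were sampled as seedlings of 14 days. The L1, the surface layer that gives rise to the epidermis, and the inner corpus, called L2 in the labels, were laser-microdissected from paraffin sections, with 5 to 10 SAMs pooled for each replicate. About 1 ng of RNA was amplified from each layer, and an L1 and an L2 product were hybridised together, in Cy3 and Cy5, on each slide. Both layers of a slide carry the same extract number, except that slide 1 pairs L1 extract 1 with L2 extract 2 and slide 5 pairs L1 extract 5 with L2 extract 6. There were 18 slides, 6 of each array design, named here slides 1 to 6, 7 to 12 and 13 to 18, with L1 in Cy3 on odd slides and in Cy5 on even ones. Each slide was read 3 times, as L, M and H. Extract numbers 1 to 5 of the L1 recur on all 3 designs, so a result seen on several designs may rest in part on shared plants. Within an amplified pool, fewer cells of a type and less RNA per cell cannot be told apart.

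The deposited values are log ratios, and no source used here names the base or the numerator. They are therefore stated as L1 minus L2 in log units, where 1 unit is 2-fold at base 2 and 2.72-fold with the natural logarithm. The values were turned by dye orientation, and their sign was fixed by kn1 alone, the knotted1 homeobox gene whose transcript is known to be missing from the L1. The means over the kn1 probes were -0.78, -0.99 and -0.60 on the 3 designs, with 1 probe of slides 13 to 18 at 0.02. No ocl probe entered that choice. The direction is thus a likely one, as no label states it. Slide 11 had the lowest agreement between its own readings, with r between 0.312 and 0.374 over all probes. Before turning, slides of like dye orientation had median correlations of 0.451, 0.269 and 0.271 over all probes of the 3 designs. Slides of opposite orientation had 0.0265, -0.164 and -0.162 before turning. Turning leaves the correlations of like slides unchanged and reverses the sign of those between opposite slides.

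On each array design some ocl probes were called higher in L1, though not all of them on slides 1 to 6 and 7 to 12. limma called 8 of the 11 ocl probes higher in L1 and 0 lower, at an adjusted p under 0.05 over all probes of a design. All 8 were above 0 on 6 of 6 slides, as was an uncalled ocl4 probe, so this is no support apart from the call. The called probes were 3 of 5 on slides 1 to 6. There 1.50% of all probes were called higher in L1, 1.34% lower and 2.84% in either direction. They were 3 of 4 on slides 7 to 12, against 0.890% higher, 0.545% lower and 1.43% in either direction. Both probes of slides 13 to 18 were called, against 1.02% higher, 0.554% lower and 1.57% in either direction. The medians of the ocl probes were 0.90, 0.87 and 0.73 on the 3 designs, while the medians of all probes lay between -0.016 and 0.00025. Of the 4 genes, ocl1, ocl3 and ocl4 had at least 1 called probe and ocl2 had none. The 8 called probes are not 8 separate sequences. The 4 ocl1 probes carry the same sequence accession, and the 2 called ocl3 probes share another. Each of the 3 uncalled probes has a sequence accession of its own.

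**Figure D1:**
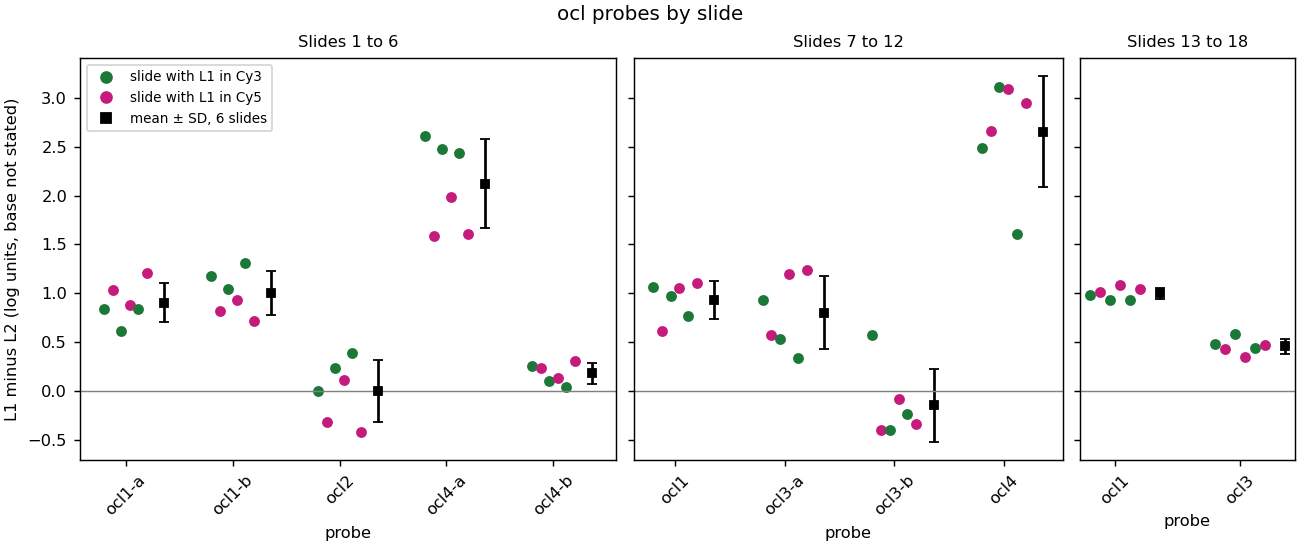
L1 minus L2 in log units (vertical axis, base not stated) for each ocl probe with values (horizontal axis), in 3 panels for the 3 array designs. Green points are slides with L1 in Cy3, magenta points slides with L1 in Cy5, and black squares with bars the mean ± SD of 6 slides; ocl4-a and ocl4 lie highest, near 2.12 and 2.65, and ocl2 and ocl3-b straddle 0.

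ocl4 showed the largest differences of the family, though not on each of its probes. On slides 1 to 6 it had a pair of probes of different sequence accessions, here ocl4-a and ocl4-b. For ocl4-a the slides with L1 in Cy3 gave 2.61, 2.48 and 2.44 (slides 1, 3 and 5), and those with L1 in Cy5 gave 1.59, 1.99 and 1.61 (slides 2, 4 and 6). Every slide was far above 0, and the orientations did not overlap. The mean was 2.12 ± 0.46 (SD, n = 6; limma adjusted p = 6.22e-07), which had rank 8 of 14401 differences, with 0.0486% of probes above it.

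A further ocl4 probe on slides 7 to 12, of another accession, gave 2.49, 3.11 and 1.61 with L1 in Cy3 (slides 7, 9 and 11). With L1 in Cy5 it gave 2.66, 3.09 and 2.95 (slides 8, 10 and 12). Slide 11 was the lowest, and the other 5 slides lay within a span from 2.49 to 3.11. The mean was 2.65 ± 0.57 (SD, n = 6; limma adjusted p = 0.000846), with rank 5 of 8991 probes. Without slide 11 it was 2.85 (limma adjusted p = 0.000314), the highest of the means with 1 slide left out. The lowest was 2.47, without slide 9 (limma adjusted p = 0.00202). The largest limma adjusted p of these refits was 0.0109.

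ocl4-b behaved otherwise on the same slides as ocl4-a. Its 6 slides ran from 0.037 to 0.31 with a median of 0.19, all above 0 and all below the lowest ocl4-a slide. The mean of 0.18 ± 0.10 (SD, n = 6) was not called (limma adjusted p = 0.272), and its 95% confidence interval of 0.020 to 0.34, not adjusted over probes, leaves room for a small difference. The gap between ocl4-a and ocl4-b was 1.94 ± 0.52 (SD, n = 6 slides), in the same direction on 6 of 6 slides (exact sign-flip permutation test over slides, two-sided p = 0.0312, adjusted p = 0.0379 over 17 pairs of ocl probes). This p is the smallest that 6 slides allow. The spread of ocl4-b between slides was among the smallest of its design, with 3.83% of probes having a smaller SD. The annotation gives both probes to the same gene, and what each one binds was not tested.

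ocl1 was above 0 in every probe and slide. Its 4 probes carry the same sequence accession, a pair of them (ocl1-a and ocl1-b) on slides 1 to 6 and 1 on each of the other designs. The 24 values, 1 for each probe and slide, ran from 0.61 to 1.31 with a median of 0.97. The 4 means lay between 0.90 and 1.00, whereas the means of the 3 ocl4 probes, each of its own accession, spanned 0.18 to 2.65.

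The ocl1-a slides ran from 0.62 to 1.20 and the ocl1-b slides from 0.72 to 1.31. Their means on slides 1 to 6 were 0.90 ± 0.20 for ocl1-a and 1.00 ± 0.22 for ocl1-b (SD, n = 6; limma adjusted p = 0.000136 and 4.38e-05). The ocl1 probe of slides 7 to 12 ran from 0.61 on slide 8 to 1.11 on slide 12, with a mean of 0.93 ± 0.20 (SD, n = 6; limma adjusted p = 0.00535). On slides 13 to 18 the 6 values were 0.98, 1.01, 0.94, 1.08, 0.93 and 1.05 in slide order. That narrow range gave a mean of 1.00 ± 0.061 (SD, n = 6; limma adjusted p = 0.000196), and only 2.68% of the 14270 probes of the design had a smaller SD. By unadjusted p this ocl1 probe had rank 5 there.

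The ocl1 pair on slides 1 to 6 tilted in opposite ways with dye orientation. ocl1-a was lower with L1 in Cy3, at 0.77 ± 0.13, than with L1 in Cy5, at 1.04 ± 0.16 (SD, n = 3 slides each). ocl1-b was higher with L1 in Cy3, at 1.18 ± 0.13, than with L1 in Cy5, at 0.82 ± 0.11 (SD, n = 3). Neither dye term was called (limma adjusted p = 0.298 and 0.171). Averaged over both probes, the slides ran from 0.83 to 1.08 with a mean of 0.95 ± 0.085 (SD, n = 6), a smaller SD than that of either probe. The mean gap between the probes was 0.099 ± 0.39 (SD, n = 6), with ocl1-b higher on 4 of 6 slides (exact sign-flip permutation test, two-sided p = 0.531, adjusted p = 0.531).

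**Figure D2:**
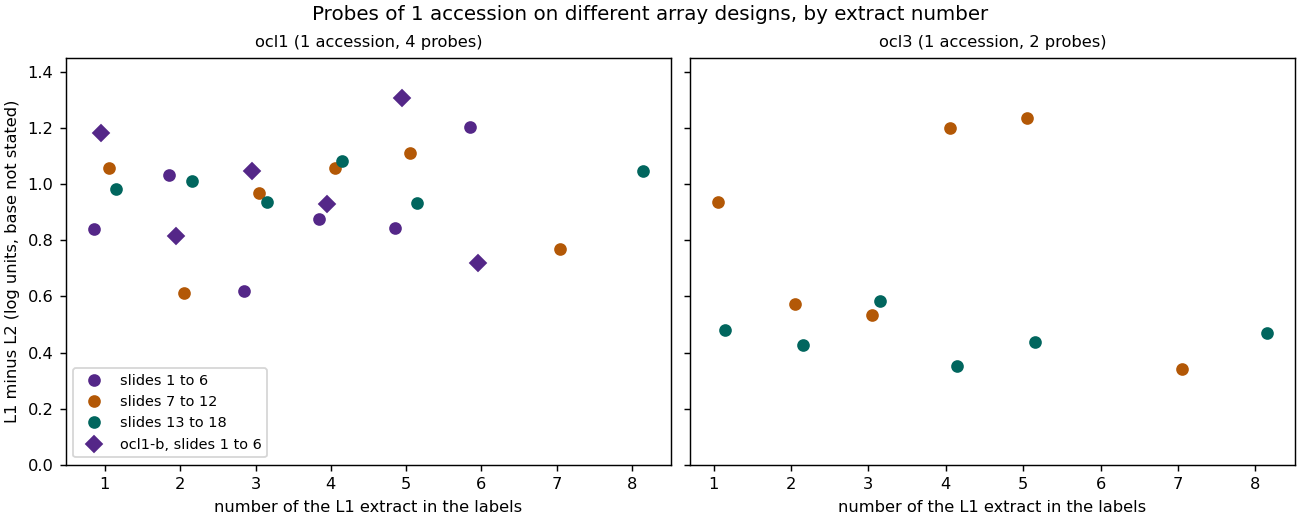
L1 minus L2 in log units (vertical axis, starting at 0) against the L1 extract number in the labels (horizontal axis), for the 4 ocl1 probes of the same accession (left) and the 2 ocl3 probes that share an accession (right), coloured by array design. The 24 ocl1 points lie between 0.61 and 1.31 for every extract, while ocl3 points of slides 7 to 12 spread from 0.34 to 1.24 and those of slides 13 to 18 stay between 0.35 and 0.58.

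The ocl1 values are set side by side by extract here. L1 extract 2 gave 0.61 to 1.03 over its 4 ocl1 values, extract 3 gave 0.62 to 1.05, and extract 5 gave 0.84 to 1.31. No extract had an ocl1 value at or below 0. Each design was fitted alone, and values of different designs were not tested against each other.

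ocl3 was higher in L1 by less than ocl1 on slides 13 to 18, and by a less stable margin on slides 7 to 12. The probe ocl3-a, on slides 7 to 12, gave 0.94, 0.53 and 0.34 with L1 in Cy3 (slides 7, 9 and 11). With L1 in Cy5 it gave 0.57, 1.20 and 1.24 (slides 8, 10 and 12). All slides were above 0, the orientations overlapped, and the mean was 0.80 ± 0.38 (SD, n = 6; limma adjusted p = 0.0295). The call was lost without slide 7, 9, 10, 11 or 12 (limma adjusted p = 0.0868, 0.0996, 0.145, 0.0520 and 0.117), with means between 0.72 and 0.87.

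The ocl3 probe of slides 13 to 18 shares its accession with ocl3-a. Its 6 slides ran from 0.35 to 0.58 with a median of 0.45, in a narrow band in which the orientations overlapped. The mean was 0.46 ± 0.076 (SD, n = 6; limma adjusted p = 0.00674), and no single slide ended the call. The call did depend on the reading, since it ended with the L values alone (0.40, limma adjusted p = 0.142) and with the M values alone (0.37, limma adjusted p = 0.196). For the extracts numbered 4 and 5, ocl3-a gave 1.20 and 1.24, and the ocl3 probe of slides 13 to 18 gave 0.35 and 0.44. For extract 3 the pair were at 0.53 and 0.58.

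The remaining ocl3 probe of slides 7 to 12, ocl3-b, was spread around 0. Slide 7 gave 0.57, and the other 5 slides lay between -0.40 and -0.081. The mean of -0.15 ± 0.37 (SD, n = 6) was not called (limma adjusted p = 0.666), with a 95% confidence interval of -0.46 to 0.17. Its 3 readings of a slide differed by a median of 1.08, more than for 98.1% of probes of the design, against a median over all probes of 0.155. The gap between ocl3-a and ocl3-b was 0.95 ± 0.44 (SD, n = 6), positive on 6 of 6 slides (exact sign-flip permutation test, two-sided p = 0.0312, adjusted p = 0.0379). With the M readings alone that gap was 0.75 and its adjusted p 0.0759 (exact sign-flip permutation test over 6 slides).

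ocl2 was measured by 1 probe, on slides 1 to 6 only, and showed no called difference. With L1 in Cy3 the slides gave 0.0035, 0.24 and 0.39 (slides 1, 3 and 5), and with L1 in Cy5 they gave -0.31, 0.11 and -0.42 (slides 2, 4 and 6). Slides of both signs occurred, 4 above 0 and 2 below. The mean was 0.00 ± 0.31 (SD, n = 6; limma adjusted p = 0.997), with a 95% confidence interval of -0.20 to 0.21. That interval lies below the lowest slide of ocl1-a, ocl1-b and ocl4-a, and it says nothing of ocl2 on the other designs, where no probe had its name.

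The order of the ocl probes on shared slides was tested pair by pair with the exact sign-flip permutation test over slides. Of the 17 pairs, 14 had a gap of 1 direction on 6 of 6 slides, and for these the two-sided p was 0.0312 (adjusted p = 0.0379). On slides 1 to 6, ocl4-a exceeded ocl1-a by 1.22 ± 0.63 and ocl1-b by 1.12 ± 0.27, and it exceeded ocl2 by 2.12 ± 0.27 (SD, n = 6). There ocl1-a exceeded ocl2 by 0.90 ± 0.49, and ocl1-b exceeded it by 1.00 ± 0.17. The ocl1-a and ocl1-b probes also exceeded ocl4-b, by 0.72 ± 0.14 and 0.82 ± 0.30. Thus ocl4-a and ocl4-b lay on opposite sides of ocl1, and the order is one of probes, not of genes. The ocl4 probe of slides 7 to 12 exceeded ocl1 by 1.72 ± 0.50 and ocl3-a by 1.85 ± 0.46. On slides 13 to 18, ocl1 exceeded ocl3 by 0.54 ± 0.13.

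The neighbours in that order that could not be told apart were the ocl1 pair, ocl4-b and ocl2, and ocl1 and ocl3-a. ocl4-b exceeded ocl2 by 0.18 ± 0.41 (SD, n = 6; exact sign-flip permutation test, adjusted p = 0.365), with gaps from -0.35 to 0.73. The ocl1 probe of slides 7 to 12 exceeded ocl3-a by 0.13 ± 0.26 (SD, n = 6; exact sign-flip permutation test, adjusted p = 0.365), with gaps from -0.14 to 0.44. These gaps compare log ratios, not transcript levels, since the levels of different spotted probes cannot be set against each other.

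The readings of a slide differed most for ocl3-b, described above, and next for ocl4-a and ocl4, by median ranges of 1.08, 0.89 and 0.67. For ocl4-a, the L reading gave 3.57, 3.07 and 3.08 on slides 1, 3 and 5, where the M reading gave 2.24, 2.19 and 1.97 and the H reading 2.03, 2.18 and 2.27. With L1 in Cy5, slide 4 also had a higher L reading (2.54, against 1.66 and 1.77), and slides 2 and 6 lay between 1.43 and 1.94 in every reading. That median range of ocl4-a was larger than that of 99.6% of the probes of its design. For slides 7 to 12 the order was turned for ocl4: the L reading had a mean of 2.30 ± 0.36 (SD, n = 6), and the M and H readings had means of 2.85 ± 0.69 and 2.81 ± 0.69. The ocl1 probe of those slides differed between readings by a median of 0.041, and 0.423% of probes had a smaller range.

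**Figure D3:**
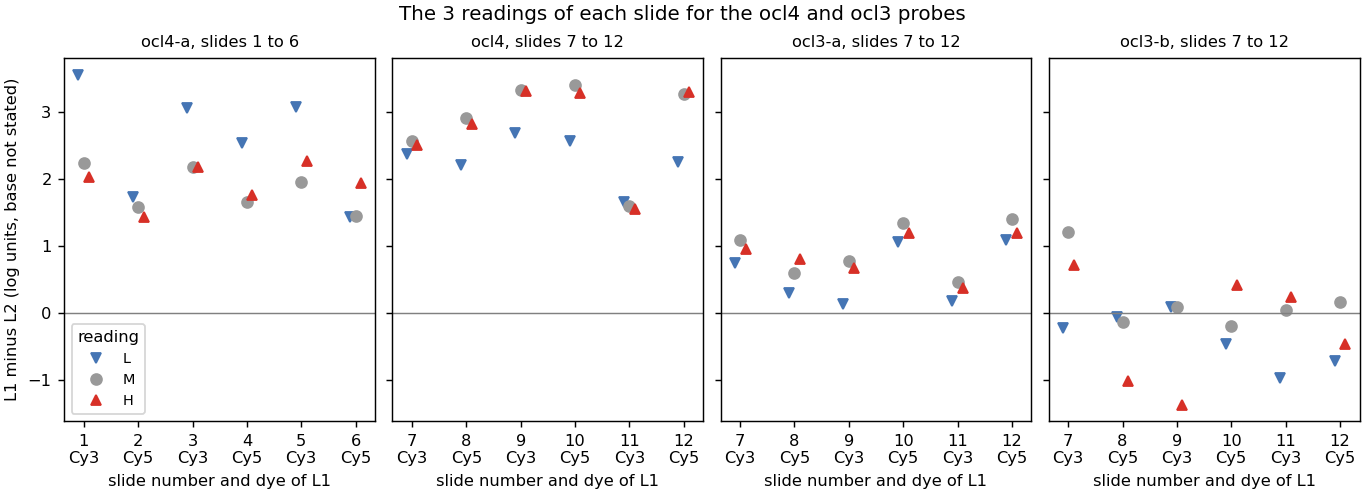
L1 minus L2 in log units (vertical axis, base not stated) of the L (blue), M (grey) and H (red) reading of each slide (horizontal axis, with the dye of L1) for ocl4-a, ocl4, ocl3-a and ocl3-b. The L reading of ocl4-a stands above the others on slides 1, 3, 4 and 5, that of ocl4 stands below them on slides 8, 9, 10 and 12, and the readings of ocl3-b scatter around 0.

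A dye term was called for 1 ocl probe. For ocl4-a the mean was 2.51 ± 0.091 with L1 in Cy3 and 1.73 ± 0.23 with L1 in Cy5 (SD, n = 3 slides each), a difference of 0.78 (limma adjusted p = 0.0385). The dye term was called for 2.88% of all probes of that design, 0.0111% on slides 7 to 12 and 0.00% on slides 13 to 18. L1 was higher in both orientations, and the layer difference given above is their average. The ocl4 probe of slides 7 to 12 lay the other way, at 2.40 ± 0.76 and 2.90 ± 0.22 (SD, n = 3), and its dye term was not called (limma adjusted p = 0.665).

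Other homeobox genes of the arrays were 41 probes of 10 genes recognised by name, of which 4 were called higher in L1 and 5 lower. All 5 lower probes were kn1, whose direction was set by the choice of sign and is no result, the strongest being at -1.26, -1.72 and -1.56 on the 3 designs (limma adjusted p = 4.37e-05, 0.000483 and 0.000514, lower on 6 of 6 slides each). The 4 higher ones were 3 of the 4 knox8 probes, another knotted-like gene, between 0.55 and 0.78, and 1 of the 2 ns1 probes, at 0.54; ns1 is known for its part in forming leaf edges. The medians of this list were -0.063, -0.029 and 0.021 on the 3 designs. Of all probes of a design, 0.890% to 1.50% were called higher and 0.545% to 1.34% lower. The knotted relatives lg3, knox3 and knox7 were not called on any probe, with differences between -0.14 for lg3 and 0.29 for knox7.

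**Figure D4:**
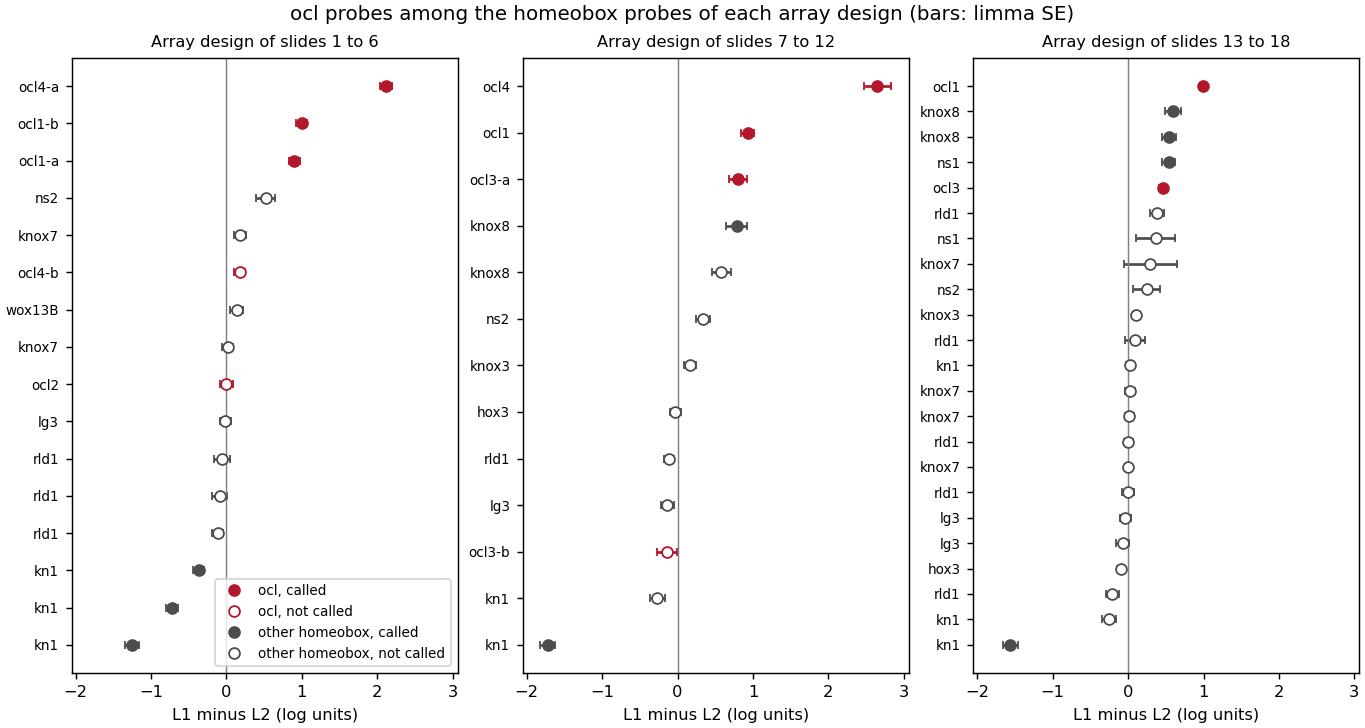
L1 minus L2 in log units (horizontal axis, base not stated) of every ocl probe with values (red) and the other homeobox probes recognised by name (grey). Probes are sorted within each array design, with bars for the limma SE (n = 6 slides). Filled points were called at an adjusted p under 0.05; ocl4-a, ocl4 and ocl1 lie at the L1 end, at 2.12, 2.65 and 1.00, and 1 kn1 probe of each design lies at the L2 end.

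The list of epidermis genes outside the OCL family held 15 probes of 6 genes, of which 1 was called higher in L1 and 0 lower. The called probe was 1 of 8 of the list on slides 13 to 18, where 1.02% of all probes were called higher. This was PLTP, a phospholipid transfer protein gene, at 0.43 ± 0.074 (limma SE, n = 6; adjusted p = 0.0451) on slides 13 to 18. The other PLTP probes there were at -0.040 and 0.20. gl8, a gene of wax synthesis, had differences of 0.52 (slides 1 to 6; limma adjusted p = 0.159) and 0.35 (slides 13 to 18; limma adjusted p = 0.0987). cr4, a receptor kinase of epidermal differentiation, was at 0.14 and -0.11, and dek1, a calpain needed for the aleurone and epidermis, was at 0.035 and 0.17. sal1, a gene that acts in aleurone formation, had 5 probes between -0.15 and 0.11, of which 3 were below 0, and the only plt2 probe was at -0.14. Apart from the 1 PLTP probe, none of these was called.

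Some markers of leaf primordium cells were called higher in L1. Of 30 probes of 9 genes, 8 were called higher, 0 lower and 22 in neither direction, led by yabby15, with 2.12 (slides 7 to 12) and 1.94 and 1.31 (slides 13 to 18; limma adjusted p = 0.000602, 3.52e-05 and 0.00363). The others called were yab14 at 0.66, yab10 at 0.49 and lg2 at 0.46 on slides 1 to 6 (limma adjusted p = 0.0158, 0.0490 and 0.0122), yab9 at 0.46 on slides 7 to 12 (limma adjusted p = 0.0264), and ns1 as above. The rs2 probes lay below 0 on each design, at -0.36, -0.20 and -0.32, and 6 of the 9 rld1 probes were below 0, none of them called. The medians of the leaf primordium list were 0.42, 0.46 and 0.32. The vascular list held 33 probes of bt2, ccr2, pal1, sh1, sus1 and sut1, most of them of sh1 and sus1. Of these 33 probes, 2 were called higher, both of ccr2, at 0.76 and 0.59, and 0 lower. The list medians were -0.0050, 0.15 and 0.013 and rest mainly on sh1 and sus1. How well these genes mark vascular cells was not tested. The corpus list held 24 probes, of which 3 were called higher, all of knox8, and 5 lower, all of kn1. Beside these 3 lists, 0.890% to 1.50% of all probes of a design were called higher and 0.545% to 1.34% lower. The part of primordium or vascular cells in the ocl differences was not tested.

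The named genes nearest to each called ocl probe were those with the smallest root mean square gap over the 6 slides of a design. The values were not centred, so a gap reflects the mean difference as well as the course over slides. Nearest to ocl4-a was EF1-A, translation elongation factor 1-alpha, at a gap of 0.58, and nearest to ocl4 was yabby15 at 0.79. MFS18 came nearest to ocl1-a (gap 0.14) and EF1-A to ocl1-b (0.30). prp2, a proline-rich protein gene, was nearest to both ocl1 (0.28) and ocl3-a (0.22) on slides 7 to 12. On slides 13 to 18 the MADS-box gene zmm31 was nearest to ocl1 (0.23) and the glutathione transferase gene gst41 to ocl3 (0.13). The next in order were SPP2 and EF1-A for ocl4-a (gaps 0.985 and 0.992), and EF1-A and prp2 for ocl4 (gaps 1.57 and 1.64). Those of ocl4 lay well below it, with differences of 1.37 and 1.02 against 2.65. For ocl1-a the next were prp2 and EF1-A, and for ocl1-b MFS18 and ccr2. For ocl1 they were prp2 and gst5 on slides 7 to 12 and fps1 and pdi2 on slides 13 to 18, and for ocl3-a and ocl3 they were gst5 and knox8, and rop2 and copz2. This likeness is a description over 6 slides.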

How the data were processed

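RNA of the L1 and the L2 was hybridised to 18 two-colour cDNA slides, giving 54 columns. The deposited values are log ratios, and the sources used here do not give the base, the numerator or the normalisation that the authors chose. Values ran from -7.77 to 8.37, with column medians between -0.0773 and 0.0597. Each probe had values in all 18 columns of its design or in none.

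The mean of the 3 readings of each slide was turned by dye orientation and fitted for each design alone with a layer and a dye term (limma 3.58.1, lmFit and eBayes, R 4.3.3, 4 residual degrees of freedom). Benjamini-Hochberg adjustment of the two-sided p-values ran over every probe of a design, with calls under 0.05. Error was thus judged from the variation among 6 slides, which may be technical in part. Slides were treated as independent, although slides 1 and 2, and 5 and 6, share an L2 extract number. Gaps between ocl probes were tested by exact sign flips over slides, adjusted over 17 pairs. A probe was tested with values on 4 or more slides, including 2 of each orientation. The number of arrays limits the precision. On simulated data, the fit recovered 62%, 54% and 72% of 50 changes of 0.5 units on slides 1 to 6, 7 to 12 and 13 to 18 (14401, 8991 and 14270 probes), and 95%, 81% and 94% of 100 changes of 1 unit. The simulated noise was drawn independently for each probe and slide, with a small dye effect and no shared extracts. Recovery on the real slides may therefore be lower.

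Names came from the array annotation and RefSeq (Zm-B73-REFERENCE-NAM-5.0, names only, no coordinates). That table holds no descriptions, so other homeobox genes were recognised by name instead. All ocl probes were named, with list genes that were called, some uncalled list genes chosen after their values were seen, and the 3 probes most like each called ocl probe. Members and lists were chosen with earlier results of these data known. The alternatives were the dye term, centring, scaling, readings, prior, gene means, single slides left out, slides 1 and 5 left out, and the L2 extract as a block. Figures were drawn with matplotlib 3.10.9 in Python 3.11.15.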

Additional observations from a re-analysis of the deposited data

Results flagged for a closer look

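For ocl4-a on slides 1 to 6, the difference between the layers itself differed with dye orientation: it was 0.783 larger with L1 in Cy3 than with L1 in Cy5 (limma dye term, adjusted p = 0.0385), and positive on 6 of 6 slides.

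For ocl3-b on slides 7 to 12, slide 7 gave 0.572 and stood apart from the other 5 slides, with a gap of 0.67 of the whole range, past Dixon's critical value at 95%. Without slide 7 the mean was -0.29 (limma adjusted p = 0.213). Chance alone flags about 1 in 20 such groups, and 11 ocl probes were examined.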

How the results depend on the processing

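Over the alternatives, 164 of 175 refits of single ocl probes kept their side of the threshold. Of 170 recomputed gaps, 168 were counted as kept, but gaps without 1 slide were compared by size alone. The exact test of 5 slides cannot go below 0.0625, so none of those gaps was under 0.05. No called direction reversed, while ocl2, ocl3-b and the gap of ocl1 over ocl3-a, which were not called, changed sign under some alternatives. ocl1 on all 4 probes, and ocl4-a and ocl4, stayed called in every refit run, with the highest adjusted p at 0.0413 for ocl1 of slides 7 to 12 without slide 10, and at 0.0382 for ocl1-a without slides 1 and 5. Leaving out 1 slide moved ocl3-a between 0.72 and 0.91, losing the call in 5 of 6 cases. ocl3-a also lost its call with scaled slides (0.83, adjusted p = 0.0760), the L reading (0.59, adjusted p = 0.120) and 1 mean per gene (0.33, adjusted p = 0.292), the last because it averages in ocl3-b. ocl3 of slides 13 to 18 lost its call with the L reading (0.40) and the M reading (0.37), which left 1 of 2 ocl probes called there in both. With 1 mean per gene, ocl4 of slides 1 to 6 was at 1.15 and called (adjusted p = 1.79e-05), which joins ocl4-b to ocl4-a. With the M reading, the gaps of ocl1 and of ocl3-a over ocl3-b were both 0.75 with an adjusted p of 0.0759; the cause was not tested. Each slide holds an L1 and an L2, and no slide number occurs in both dye orientations. With the L2 extract, shared by slides 1 and 2 and by slides 5 and 6, as a block (correlation -0.207), ocl4-a was at 2.11 and ocl1-a at 0.91. With that negative correlation the limma SE was smaller than in the main fit, 0.075 against 0.081 for ocl4-a and 0.072 against 0.077 for ocl1-a. The block refit is thus no stricter check on the shared extracts. Calls over all probes numbered 409, 129 and 224 on the 3 designs. They fell to 258 without the dye term and 78 without slides 1 and 5 on slides 1 to 6, to 77 with scaled slides and 76 with the H reading on slides 7 to 12, and to 261, 82 and 79 with the L reading. They rose to 577 with the L2 extract as a block on slides 1 to 6, and to 261 without the dye term on slides 13 to 18. Leaving out 1 slide gave 211 to 417, 38 to 65 and 88 to 231.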
